A study of Mus musculus with 11 samples.

Results

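The endoplasmic reticulum (ER) stress response was followed in whole kidneys through 10 genes chosen by name: Hspa5, Hsp90b1, Calr, Pdia4, Sdf2l1, Dnajb9, Herpud1, Xbp1, Atf4 and Ddit3. These genes and the pathway lists used below were chosen with earlier results of these data known. Of the 10 genes, 9 had a row among the 24914 rows of the count files and all 9 passed the filter on low counts, while Atf4 was not analysed here. The kidneys came from 129X1/SvJ mice at 5.5 weeks of age, and RNA was read as mRNA sequencing libraries that do not mark strand. Heterozygous Col4a3+/- controls that received PBS (HET PBS, n = 3) stood beside homozygous Col4a3-/- knockouts that received either PBS (KO PBS, n = 4) or the inhibitor antimiR-21 (KO antimiR-21, n = 4). The Col4a3 knockout is a model of Alport syndrome, in which the type IV collagen network of the glomerular basement membrane is defective, and antimiR-21 is an oligonucleotide that inhibits the microRNA miR-21. PBS is the vehicle, and the controls were heterozygous, so every mouse carried at least 1 mutated Col4a3 allele. The labels give no sex, no hour of collection, and no dose or schedule, and nothing says how the kidneys were shared among animals, so p-values measure the spread between these libraries.

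The ER folds secreted and membrane proteins, and when unfolded protein accumulates there, sensors in its membrane (Ern1, Eif2ak3 and Atf6) start a transcriptional program called the unfolded protein response. The program raises chaperones and folding enzymes through Atf6 and spliced Xbp1, raises the degradation machinery, and through Eif2ak3 and Atf4 reaches amino acid metabolism and, under lasting stress, the death-linked factor Ddit3. In the kidney this response is known from podocytes and proximal tubule cells, which make or take up large amounts of protein.

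Of the 10 genes, 4 carried at least 1 of 4 searched elements in the 250 bases before their RefSeq start or the 50 bases after it (GRCm38.p6), and the stretch before the start of each is printed to show which elements they share. Capitals mark matches on either strand to the ER stress response element (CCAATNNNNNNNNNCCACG, where N is any base), its second form (ATTGGNCCACG) or the C/EBP-ATF element (TTGCATCA).
Hspa5 (chr2:34771840-34772089, + strand): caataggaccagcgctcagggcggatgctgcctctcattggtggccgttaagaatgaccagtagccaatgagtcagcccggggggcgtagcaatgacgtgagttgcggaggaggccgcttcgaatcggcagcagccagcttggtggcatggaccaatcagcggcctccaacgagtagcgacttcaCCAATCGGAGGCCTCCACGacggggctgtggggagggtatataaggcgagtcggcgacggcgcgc
Hsp90b1 (chr10:86705445-86705694, - strand): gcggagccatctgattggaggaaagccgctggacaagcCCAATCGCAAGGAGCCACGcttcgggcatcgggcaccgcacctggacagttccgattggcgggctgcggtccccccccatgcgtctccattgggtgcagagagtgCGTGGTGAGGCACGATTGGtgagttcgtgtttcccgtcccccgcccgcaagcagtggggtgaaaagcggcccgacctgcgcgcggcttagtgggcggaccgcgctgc
Calr (chr8:84846932-84847181, - strand): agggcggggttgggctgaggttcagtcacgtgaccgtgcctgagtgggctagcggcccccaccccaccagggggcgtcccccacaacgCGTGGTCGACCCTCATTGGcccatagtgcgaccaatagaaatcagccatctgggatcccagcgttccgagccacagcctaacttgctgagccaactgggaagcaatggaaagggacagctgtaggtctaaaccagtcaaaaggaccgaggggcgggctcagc
Herpud1 (chr8:94386179-94386428, + strand): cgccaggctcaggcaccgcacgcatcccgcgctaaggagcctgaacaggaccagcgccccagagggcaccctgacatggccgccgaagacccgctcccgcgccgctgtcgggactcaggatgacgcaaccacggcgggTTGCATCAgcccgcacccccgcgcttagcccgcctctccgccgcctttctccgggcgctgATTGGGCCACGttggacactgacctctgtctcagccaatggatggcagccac
The ER stress response element stood in 3 of the 10 windows, at 65 to 47 bases before the start of Hspa5, at 212 to 194 and again at 107 to 89 for Hsp90b1, and at 162 to 144 for Calr. Among all genes with a window, 0.137% held it. The Herpud1 window held the second form at 52 to 42 bases before the start, as did 0.0444% of genes, and the C/EBP-ATF element at 112 to 105, as did 1.03%. The element TGACGTGG stood in 0 of the 10 windows and in 0.714% of genes. The windows of Pdia4, Sdf2l1, Dnajb9, Xbp1, Atf4 and Ddit3 held none of these 4 strings. Genes and elements were both chosen as known parts of this response, so the shares are a description and do not test enrichment. A match to letters does not show that a factor binds there.

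Library totals ran from 17.9 to 39.7 M counts, and levels are given in CPM, the share of a library's counts adjusted for its composition. Some neighbouring genes had identical counts in every library and were treated as a joint locus whose reads belong to either gene: Hspa5 with Rabepk, Xbp1 with Ccdc117, and Ddit3 with Mars. The targeted gene was in the same situation, since Col4a3 shared its counts with Col4a4, and the joint level ran from 870 to 1271 CPM in HET PBS, from 607 to 997 in KO PBS and from 515 to 809 in KO antimiR-21. Those ranges overlap, so this locus does not check the genotype of single libraries. Among markers with counts of their own, kidney tubule markers were high everywhere, with a summed level of 9930 to 12780 CPM over 5 genes, and podocyte markers summed to 482 to 768 CPM over 5. Of secretory cell types rich in ER, plasma and B cell markers stayed under 1 CPM for 5 of 8 genes, exocrine pancreas markers for 8 of 11 and adrenal markers for 7 of 9. The highest plasma cell and adrenal values came from the joint loci Mzb1/Spata24 (45.8 to 74.2 CPM) and Ash2l/Star (59.1 to 64.6 CPM), and Cela2a was counted jointly with Casp9, so these do not measure the markers themselves. Cela1, with counts of its own, stood at 85.6 to 136 CPM in every library. The pancreas gene Ctrb1 read 2.41 CPM (62 counts) and Prss2 0.932 CPM (24 counts) in KO PBS replicate 4, beside at most 2 and 0 counts in any other library. Of 7 macrophage markers, Csf1r was joint with Hmgxb3, and the other 6 summed to 47.5 to 89.9 CPM in HET PBS, 75.6 to 179 in KO PBS and 121 to 144 in KO antimiR-21.

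A pair of library properties cut across the groups. Reads from the Y chromosome were present in 5 libraries (HET PBS replicates 2 and 3, KO PBS replicates 3 and 4, KO antimiR-21 replicate 4), where the Y-linked gene Ddx3y stood at 89.7 to 109 CPM, and at 0 to 0.172 CPM in the other 6. The circadian clock genes also fell into separate levels. A clock index, the mean log2 CPM of the clock output and period genes Tef, Hlf and Per3 minus that of the activators Arntl and Npas2, was 5.14 to 6.28 in HET PBS replicates 1 and 2 and KO antimiR-21 replicates 1, 2 and 4. The other 6 libraries, all 4 of KO PBS among them, had an index of at most 2.97. Neither property defines a group of the study.

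Levels per kilobase of exon (CPM per kb, over the exons of all GENCODE vM21 isoforms) could be ordered for the 6 genes with counts of their own. Calr, a calcium-binding lectin chaperone (chromosome 8, 84841850 to 84846934), had the highest mean at 264 CPM per kb, with libraries at 220 to 319. Herpud1, a membrane protein of ER-associated degradation (chromosome 8, 94386438 to 94395377), followed at 196, with a wide range of 118 to 349. Hsp90b1, the ER paralog of Hsp90 (chromosome 10, 86690209 to 86705509), stood at 168 with a range of 150.2 to 191, and its range overlapped that of Herpud1, as did that of Calr. The disulfide isomerase Pdia4 (chromosome 6, 47796141 to 47813430) stood at 63.1, range 55.7 to 71.4. The Hspa5 cochaperone Dnajb9 (chromosome 12, 44205559 to 44210326) stood at 21.6, range 17.3 to 25.5. Sdf2l1, a small lumenal partner of Hspa5 complexes (chromosome 16, 17130138 to 17132383), was lowest at 10.4, range 7.78 to 13.2, and the last 3 genes did not overlap each other. All coordinates are on GRCm38. Read counts per library ran from 181 to 358 for Sdf2l1 and were at least 1002 for each of the others, so counting error is largest for Sdf2l1.

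In knockout kidneys given PBS, the response did not move as a unit against heterozygous controls. None of the 9 genes passed the threshold (edgeR's quasi-likelihood test with Benjamini-Hochberg adjustment over all 14380 loci tested), against a background of 0% of loci called. At an unadjusted p under 0.05, 1 of the 9 differed (background 6.94%), limma-voom gave the same counts of 0 and 1, and DESeq2 called 1 (background 0.584%). The median log2 difference was -0.06 over the 9 genes, with 3 positive and 6 negative. Over all 14380 loci it was -0.015, with 6680 positive and 7700 negative. That the mRNA comes from a whole organ leaves fewer cells of a type and less RNA per cell impossible to tell apart.

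The gene that differed was Sdf2l1. Its level was 9.10, 8.62 and 10.3 CPM in HET PBS and 11.8, 14.6, 13.7 and 13.9 CPM in KO PBS. Each KO PBS library lay above each HET PBS library, a separation in this direction that 3.55% of all loci had. The log2 difference was 0.53 (SE 0.14, a 1.44-fold higher mean), with an adjusted p of 0.431 in edgeR's quasi-likelihood test and 0.0262 in DESeq2, and adjusted p ran from 0.0262 to 1 over all alternatives tried. The difference was 0.55 within libraries with Y-linked reads (2 against 2) and 0.52 within those without (1 against 2, no test). With the clock index as a covariate it was 0.36. Markers of tubular injury (11 genes) summed to 1093 to 2471 CPM in HET PBS and 1925 to 7693 CPM in KO PBS. The gene Spp1 alone made up most of these sums, at 749 to 2010 CPM and 1394 to 6767 CPM. The macrophage sums given above overlapped between these groups, and the macrophage gene Lyz2 read 11.7 to 28.1 CPM and 28.6 to 75.3 CPM. The part of these markers in the Sdf2l1 difference was not tested. KO PBS replicate 1 had the highest injury sum and the lowest Sdf2l1 level of its group, and how these values are related was not tested.

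Abundant chaperones lay close together in these groups. The Hspa5/Rabepk locus, where Hspa5 (chromosome 2, 34771970 to 34777547) encodes the Hsp70 chaperone of the ER, read 533, 643 and 678 CPM in HET PBS and 499, 548, 658 and 667 CPM in KO PBS. The log2 difference of -0.06 had a 95% interval of -0.34 to 0.22. Hsp90b1 read 606, 638 and 772 CPM against 645, 749, 725 and 753, a log2 difference of 0.10 (-0.13 to 0.33). Calr read 633, 834 and 919 CPM against 720, 800, 843 and 820, a difference of 0.00 (-0.28 to 0.28). Pdia4 read 134, 171 and 160 CPM against 134, 151, 144 and 158, a difference of -0.08 (-0.29 to 0.13). For these 4 loci the groups overlapped, and HET PBS spread as widely as the distance between groups or more. Its replicate 1 was the lowest of its group for all 4.

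Transcription factors and the degradation gene likewise overlapped. The Ccdc117/Xbp1 locus, where Xbp1 (chromosome 11, 5520659 to 5525893) encodes the factor activated by Ern1 splicing, read 161, 178 and 143 CPM in HET PBS and 174, 156, 145 and 134 in KO PBS (log2 difference -0.08, SE 0.10). Gene-level counts do not separate spliced from unspliced Xbp1. The Ddit3/Mars locus, where Ddit3 (chromosome 10, 127290829 to 127293753) encodes a factor of prolonged stress, read 67.8, 82.8 and 77.5 CPM against 73.7, 72.0, 77.3 and 76.2 (-0.02, SE 0.08). Herpud1 was 553, 476 and 303 CPM in HET PBS and 339, 357, 274 and 295 in KO PBS. Its log2 difference of -0.49 (SE 0.27) had the largest size of the negative ones with an adjusted p of 0.778 in edgeR's quasi-likelihood test, and HET PBS replicate 3 lay inside the KO PBS range. Dnajb9 was 54.9, 61.9 and 52.3 CPM against 53.9, 54.3, 44.1 and 45.3 (-0.19, SE 0.11, adjusted p of 0.780 in the same edgeR test).

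**Figure D1:**
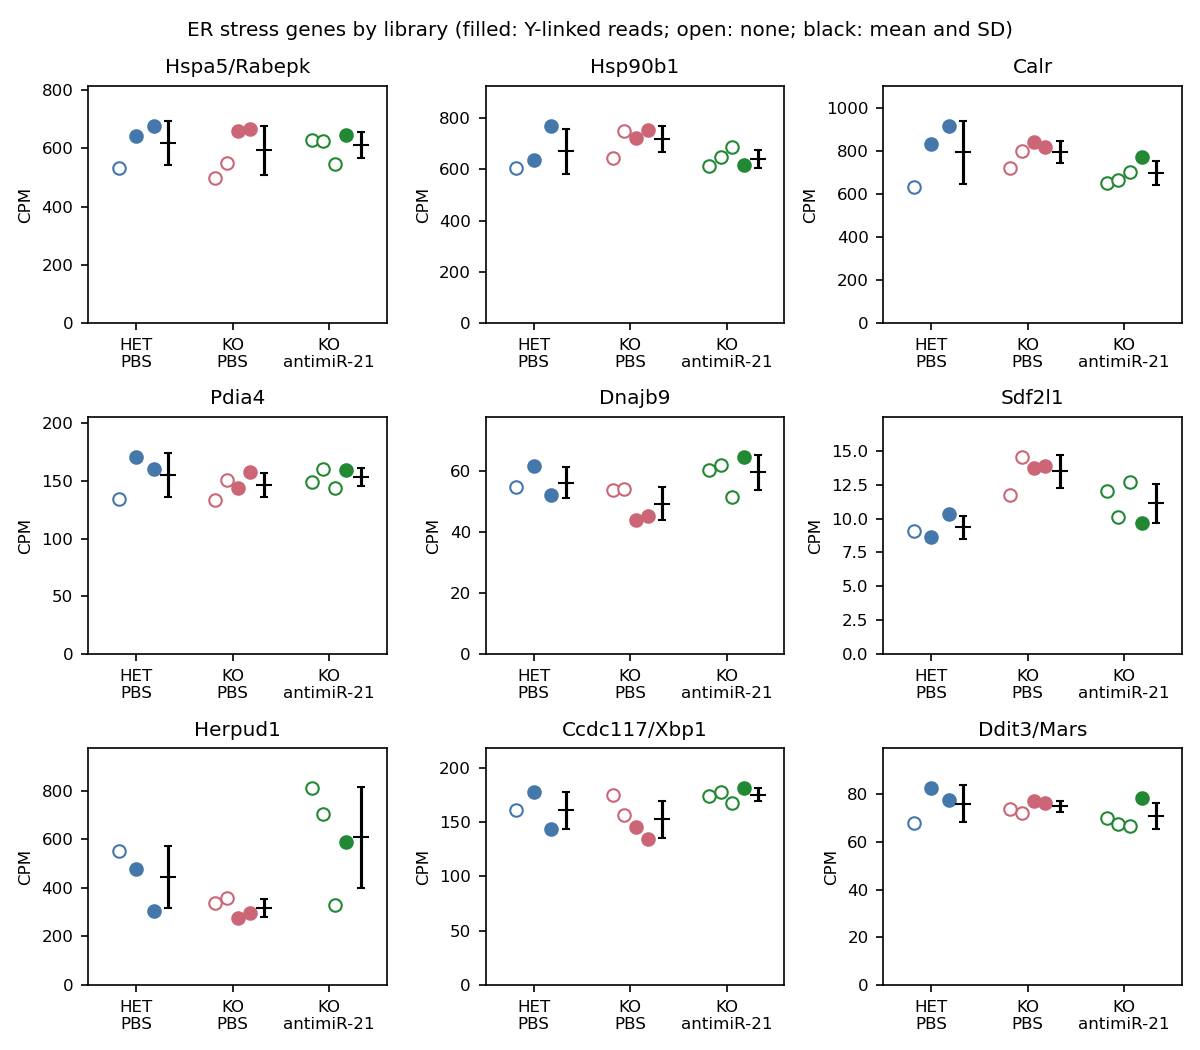
Level in CPM (vertical axes, linear from 0) of the 9 genes or joint loci in each of the 11 libraries, by group; filled points are libraries with Y-linked reads, open points those without, and black marks the mean and SD of a group. Sdf2l1 in KO PBS (11.8 to 14.6 CPM) lies above HET PBS (8.62 to 10.3 CPM), and Herpud1 in KO antimiR-21 spreads from 328 to 813 CPM.

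AntimiR-21 was compared with PBS among knockouts. Herpud1 had the largest difference of the 9 genes, at 813, 705, 328 and 588 CPM in KO antimiR-21 beside 339, 357, 274 and 295 in KO PBS. Replicates 1, 2 and 4 lay above every KO PBS library, and replicate 3 lay inside the KO PBS range. The log2 difference was 0.94 (SE 0.26, a 1.92-fold higher mean), with an unadjusted p of 0.00365 and an adjusted p of 0.334 in edgeR's quasi-likelihood test, and DESeq2 gave an adjusted p of 0.0360, the lowest over all alternatives tried. The highest adjusted p over the alternatives was 0.9999, in the edgeR test with the clock index as a covariate. KO antimiR-21 replicate 3 was the treated library with a low clock index and the lowest Herpud1 level of its group. Without it, the Herpud1 log2 difference was 1.15, the highest over all alternatives tried, and its adjusted p in the edgeR test was 0.0560. None of the 9 genes was called by edgeR (background 0%), 3 had an unadjusted p under 0.05 (background 8.21%), limma-voom gave 0 and 4, and DESeq2 called 1 (background 0.950%).

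The Herpud1 level went with the clock genes. In the 5 libraries with a high clock index it was 476 to 813 CPM, and in the 6 with a low index it was 274 to 357 CPM, with HET PBS and KO antimiR-21 libraries on both sides. These ranges did not overlap, which held in this direction for 1.54% of all loci, and the split was drawn after the clock genes were seen to move with Herpud1. KO antimiR-21 replicate 3, with an index of 2.97, read 328 CPM, and HET PBS replicate 3, with an index of 2.42, read 303 CPM. The clock index was also put beside the groups as a covariate, a term added after the data were seen. The Herpud1 difference between KO antimiR-21 and KO PBS was then -0.01 (SE 0.21), and that between KO PBS and HET PBS 0.23 (SE 0.19). All 4 KO PBS libraries had a low index and 3 of 4 KO antimiR-21 libraries a high one, so treatment and clock state can be told apart only through replicate 3 and the HET PBS libraries. The same limit holds for every other treatment difference given here with the clock index as a covariate. What set the clock genes apart was not tested.

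**Figure D2:**
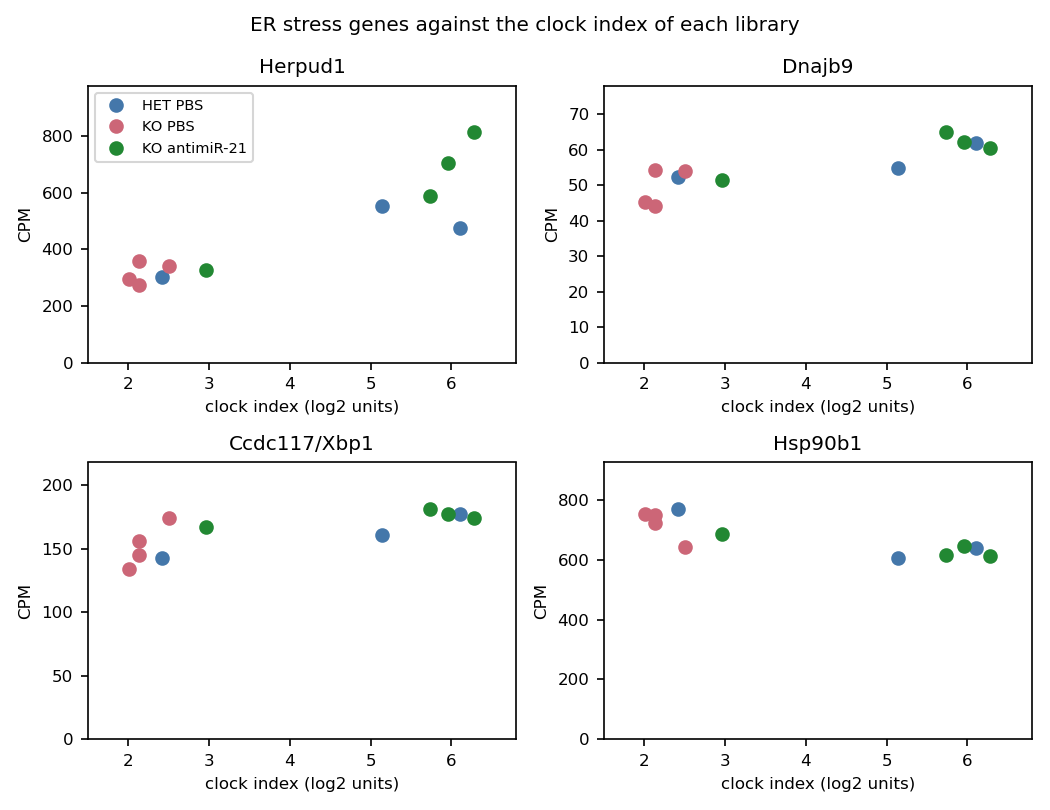
Level in CPM (vertical axes, linear from 0) of 4 genes or joint loci against the clock index of the same library (horizontal axis, log2 units), coloured by group. Herpud1 is 274 to 357 CPM in the 6 libraries on the left and 476 to 813 CPM in the 5 on the right, Dnajb9 lies higher on the right in these libraries, and Hsp90b1 lies lower there but for a small overlap.

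Dnajb9 and Xbp1 ordered the libraries much as Herpud1 did (Spearman 0.909 and 0.718 over 11 libraries, as a description). Dnajb9 was 60.5, 62.1, 51.5 and 64.9 CPM in KO antimiR-21 and 53.9, 54.3, 44.1 and 45.3 in KO PBS, a log2 difference of 0.28 (SE 0.10, adjusted p of 0.492 in edgeR's quasi-likelihood test). Its range was 54.9 to 64.9 CPM where the clock index was high and 44.1 to 54.3 where it was low, again with no overlap (1.54% of all loci). The split was drawn with Herpud1 in view and Dnajb9 ordered the libraries like Herpud1, so this separation is not a separate test. With the index as a covariate the treatment difference of Dnajb9 was 0.04. The Ccdc117/Xbp1 locus read 174, 177, 167 and 182 CPM in KO antimiR-21 beside 174, 156, 145 and 134 in KO PBS (0.20, SE 0.09, adjusted p of 0.620 in the edgeR test). Its clock ranges, 161 to 182 and 134 to 174 CPM, overlapped.

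Lumenal chaperones were ordered otherwise. Hsp90b1 was 612, 647, 687 and 616 CPM in KO antimiR-21 (log2 difference from KO PBS -0.16, 95% interval -0.38 to 0.05), and it had 606 to 647 CPM at a high clock index and 645 to 772 CPM at a low one. Calr was 651, 663, 703 and 774 CPM (-0.19, -0.45 to 0.07). The Hspa5/Rabepk locus was 629, 624, 547 and 647 CPM (0.04, -0.21 to 0.30), and Pdia4 was 149, 160, 144 and 159 CPM (0.06, -0.13 to 0.26). Sdf2l1 was 12.0, 10.1, 12.7 and 9.69 CPM, between HET PBS and KO PBS on average, with a log2 difference from KO PBS of -0.28 (SE 0.13, adjusted p of 0.602 in edgeR's quasi-likelihood test) that was -0.05 with the clock index as a covariate. The Ddit3/Mars locus was 70.1, 67.4, 66.8 and 78.6 CPM (-0.08, SE 0.08).

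Treated knockouts were also set against heterozygous controls. None of the 9 genes was called in edgeR's quasi-likelihood test (background 0.00695%), 0 had an unadjusted p under 0.05 (background 8.05%), and DESeq2 and limma-voom each called 0. The log2 differences ran from -0.19 for Calr (95% interval -0.47 to 0.09) to 0.45 for Herpud1 (-0.16 to 1.07), and the ranges of the 2 groups overlapped for every gene. For Calr the difference was -0.18 within libraries with Y-linked reads (1 against 2) and 0.085 within those without (3 against 1, no test). The 3 comparisons share libraries pairwise, so their values are not independent of each other.

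**Figure D3:**
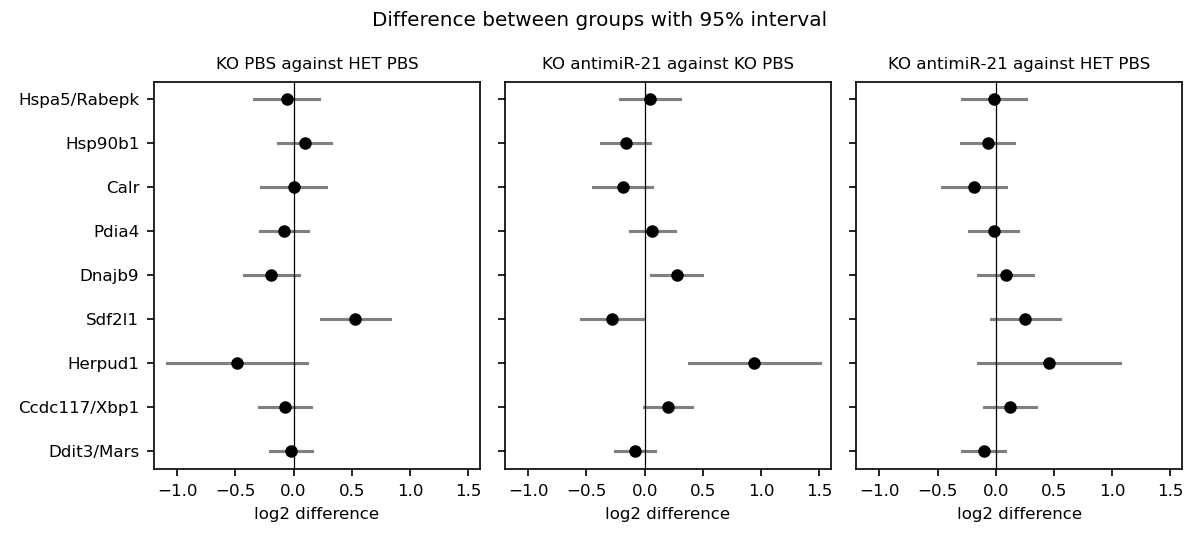
Log2 difference (horizontal axes) of each of the 9 genes or joint loci in the 3 comparisons; points are estimates from edgeR and bars their 95% intervals. Intervals that exclude 0 are those of Sdf2l1 in KO PBS against HET PBS, and of Dnajb9, Herpud1 and Sdf2l1 in KO antimiR-21 against KO PBS, before adjustment over all loci.

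The joint locus of Hspa5 and Rabepk, and Calr, were higher in libraries with Y-linked reads, whatever their group. The Hspa5/Rabepk locus read 643 to 678 CPM (median 658) in the 5 libraries with such reads and 499 to 629 CPM (median 547) in the 6 without. These ranges did not overlap, which held in this direction for 8.14% of all loci. With group in the model, the log2 difference was 0.26 (SE 0.07, adjusted p of 0.0269 in edgeR's quasi-likelihood test). Calr read 774 to 919 CPM with and 633 to 800 CPM without, a log2 difference of 0.24 (SE 0.08, adjusted p of 0.0454 in the same edgeR test). The Ddit3/Mars locus stood at 76.2 to 82.8 CPM with and 66.8 to 73.7 CPM without (0.16, SE 0.05), also with no overlap, and missed the threshold with an adjusted p of 0.0552 in the edgeR test.

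So 2 of the 9 genes or joint loci were called higher, where 11.1% of all loci were, and 0 lower, where 6.85% were. The other 6 genes had log2 differences of -0.28 to 0.14 in this comparison and overlapping ranges. These calls depended on single libraries: 0 of the 9 genes were called without HET PBS replicate 1, HET PBS replicate 3, KO PBS replicate 1 or KO PBS replicate 3, and 1 without HET PBS replicate 2 or KO antimiR-21 replicate 1, 2 or 4. It was 3 without KO PBS replicate 2 or 4 or KO antimiR-21 replicate 3. The log2 difference stayed between 0.23 and 0.32 for Hspa5 and between 0.16 and 0.28 for Calr over these 11 fits.

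The wider pathway was read from 6 lists holding 130 tested loci, and edgeR's quasi-likelihood test, DESeq2 and limma-voom each called 0 of them in each of the 3 comparisons of groups. For KO PBS against HET PBS, 8 were higher and 1 lower at an unadjusted p under 0.05, where 4.21% of all loci were higher and 2.73% lower. For KO antimiR-21 against KO PBS the counts were 5 and 8 (backgrounds 4.76% and 3.46%), and for KO antimiR-21 against HET PBS 4 and 3 (5.04% and 3.01%).

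Among sensors and transducers (13 loci), 2 were higher in KO PBS than in HET PBS at an unadjusted p under 0.05 (background 4.21%). Eif2ak3, the sensor kinase PERK that phosphorylates eIF2 alpha, was 57.2 to 61.4 CPM in HET PBS and 64.7 to 70.0 CPM in KO PBS. Its ranges did not overlap, which held in this direction for 3.55% of all loci. The log2 difference was 0.19 (SE 0.07, adjusted p of 0.638 in the edgeR test). Traf2, an adaptor of Ern1, was 25.9 to 29.2 CPM and 28.6 to 37.3 CPM (0.26, SE 0.11). The median over the 13 was -0.04.

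The list of integrated stress response targets and kinases (34 loci) also holds kinases other than Eif2ak3, such as Eif2ak1, so it is not particular to ER stress. It had 6 higher and 0 lower in KO PBS against HET PBS at an unadjusted p under 0.05 (backgrounds 4.21% and 2.73%), with a list median of 0.04. Stc2, a secreted glycoprotein, was at most 11.03 CPM in HET PBS and 11.4 to 26.6 CPM in KO PBS (log2 difference 0.85, SE 0.27, adjusted p of 0.536 in the edgeR test). Mthfd2, a mitochondrial enzyme of folate metabolism, was 4.72 to 5.78 CPM in HET PBS, 6.37 to 9.55 CPM in KO PBS and 4.03 to 5.89 CPM in KO antimiR-21. Its log2 differences were 0.53 (SE 0.19) for the knockout and -0.54 (SE 0.18) for the treatment, with adjusted p of 0.594 and 0.420 in the edgeR test. Each KO PBS library lay above each HET PBS library, as 3.55% of all loci did, and above each KO antimiR-21 library, as 1.95% did. Both comparisons use the same KO PBS libraries. KO PBS replicate 1 had the highest sum of tubular injury markers (7693 CPM, of which Spp1 made up 6767 CPM). It also had the highest level of Stc2 (26.6 CPM) and of Mthfd2 (9.55 CPM), and the part of injury in these values was not tested.

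For the treatment, 2 loci of this list were higher and 4 lower at an unadjusted p under 0.05 (backgrounds 4.76% and 3.46%). Sesn2, a leucine sensor induced by stress, was 50.1 to 58.4 CPM in KO PBS and 60.4 to 83.8 CPM in KO antimiR-21 (0.46, SE 0.14, adjusted p of 0.384 in the edgeR test). With the clock index as a covariate its difference was -0.01 (SE 0.12). For KO antimiR-21 against HET PBS, Eif4ebp1, an inhibitor of cap-dependent translation, was 13.9 to 16.4 CPM and 8.84 to 12.5 CPM (0.50, SE 0.16, adjusted p of 0.530 in the edgeR test). Its KO PBS range of 11.6 to 16.1 CPM overlapped both. Nupr1, a stress-induced nuclear protein, was 22.2 to 52.1 CPM in KO antimiR-21 beside 7.47 to 20.9 CPM in HET PBS (1.19, SE 0.42, adjusted p of 0.569 in the edgeR test), while KO PBS held 19.5 to 47.8 CPM.

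Degradation genes (20 loci) were negative for 18 and positive for 2 in KO PBS against HET PBS, with a median of -0.09, where 7700 of all 14380 loci were negative. Of the 20, 0 reached an unadjusted p under 0.05 (background 6.94% in either direction). The smallest p belonged to Herpud2, the paralog of Herpud1, at 50.4 to 53.7 CPM in HET PBS and 46.2 to 49.3 CPM in KO PBS (-0.12, SE 0.06). In libraries with against without Y-linked reads, 15 of the 20 loci were positive. Such reads were in 2 of 3 HET PBS and 2 of 4 KO PBS libraries, and the part of this imbalance in the signs was not tested. Derl3, a channel component of degradation, was 1.05 to 2.05 CPM in KO PBS and 1.37 to 4.15 CPM in KO antimiR-21 (0.96, SE 0.40). Its difference was -0.10 (SE 0.54) with the clock index as a covariate. Creb3l3, a membrane-bound transcription factor counted with the sensors, had very low levels, 0.13 to 0.46 CPM and 0.25 to 1.42 CPM (1.97, SE 0.68). Its difference was -0.32 (SE 0.89) with that covariate.

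Folding enzymes and cochaperones (27 loci) had a median of -0.05 for the knockout and -0.04 for the treatment. For the treatment 21 of 27 were negative, where 7062 of all 14380 loci were, and 2 were lower at an unadjusted p under 0.05 (background 3.46%). In libraries with against without Y-linked reads, 23 of the 27 were positive. Such reads were in 2 KO PBS libraries and 1 KO antimiR-21 library, and the part of this imbalance in the signs was not tested. The isomerase Pdia6, counted jointly with Atp6v1c2, was 262 to 312 CPM in KO PBS and 236 to 258 CPM in KO antimiR-21 (-0.20, SE 0.09), and the lumenal protein Erp29 was 113 to 149 CPM and 99.0 to 127 CPM (-0.31, SE 0.12). Erp44, which retains client proteins, was 106 to 137 CPM in HET PBS and 97.7 to 115 CPM in KO antimiR-21 (-0.28, SE 0.11). The adjusted p of these 3 genes were 0.589, 0.531 and 0.583 in edgeR's quasi-likelihood test. With group in the model, Erp44 was also called higher in libraries with Y-linked reads (0.23, SE 0.06, adjusted p of 0.0178 in the same test). Such reads were in HET PBS replicates 2 and 3 but, of the KO antimiR-21 libraries, only in replicate 4.

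Translocation and signal peptide processing (26 loci) had a median of -0.04 for the knockout and -0.09 for the treatment. Sec62, a translocon subunit, was 349 to 408 CPM in HET PBS, 292 to 360.0 CPM in KO PBS and 340 to 404 CPM in KO antimiR-21, with log2 differences of -0.22 (SE 0.10) and 0.21 (SE 0.09). Death effectors (10 loci) had medians of 0.07 and 0.05. Bax, which opens the outer mitochondrial membrane, was 49.7 to 55.3 CPM in KO PBS and 42.9 to 49.5 CPM in KO antimiR-21 (-0.21, SE 0.09, adjusted p of 0.539 in the edgeR test).

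**Figure D4:**
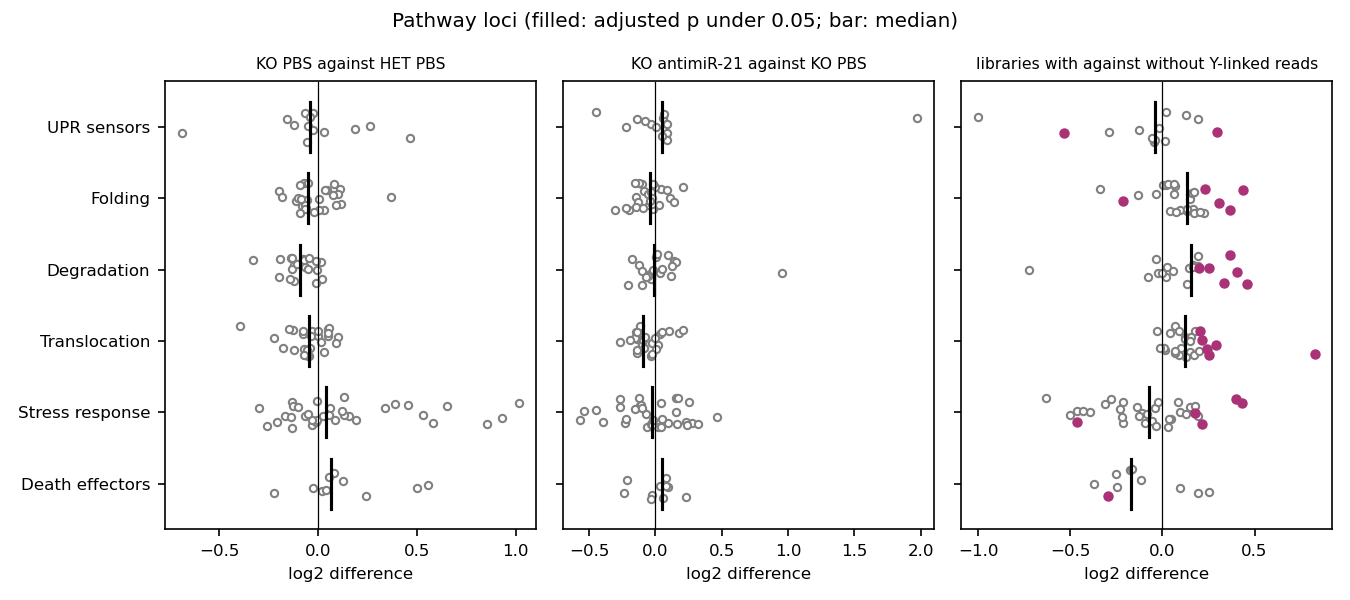
Log2 difference (horizontal axes, each with its own scale) of every tested locus in the 6 pathway lists for 3 contrasts; filled points passed an adjusted p of 0.05 and bars are list medians. Filled points appear only in the contrast of libraries with and without Y-linked reads, 21 to the right of 0 and 4 to the left.

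Between libraries with and without Y-linked reads, 21 of the 130 loci were called higher and 4 lower, for backgrounds of 11.1% and 6.85%. Folding enzymes were positive for 23 of 27 (median 0.13), degradation genes for 15 of 20 (median 0.16) and translocation genes for 24 of 26 (median 0.12). Over all 14380 loci, 6674 were positive and the median was -0.02. Sec11a, a catalytic subunit of the signal peptidase, was 92.8 to 140 CPM with such reads and 57.0 to 73.4 CPM without (0.83, SE 0.10, adjusted p of 0.000106 in edgeR's quasi-likelihood test). Dnajb11, a cochaperone of Hspa5, was 135 to 156 CPM and 104 to 123 CPM (0.36, SE 0.07, adjusted p of 0.00268). The degradation ATPase Vcp was 293 to 342 CPM and 225 to 280.0 CPM (0.33, SE 0.07, adjusted p of 0.00466). In the other direction, Slc3a2, the heavy chain of amino acid transporters and a stress response target, was 209 to 263 CPM with and 272 to 349 CPM without (-0.46, SE 0.08, adjusted p of 0.00132). Death effectors had a median of -0.17, with 1 of 10 called lower, the Rhobtb2/Tnfrsf10b locus (-0.30, SE 0.09). The count of 25 called loci was 10 without HET PBS replicate 1, 15 without KO PBS replicate 1, 14 without KO PBS replicate 3, 13 without KO antimiR-21 replicate 4 and 46 without KO PBS replicate 2.

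The 9 genes did not rank the libraries alike. Of their 36 pairs, 21 had a positive Spearman coefficient over the 11 libraries and 15 a negative one, from -0.755 for Hsp90b1 with Herpud1 to 0.909 for Dnajb9 with Herpud1. Hspa5 with Calr had 0.727 and Calr with Ddit3 0.764. Such coefficients are descriptions over libraries that share group, Y-linked status and clock state. The mean standardized level of the 9 genes was lowest in HET PBS replicate 1 (-0.77 SD), where 6 of the 9 were among the lowest 3 libraries, and highest in HET PBS replicate 2 (0.53 SD), so the extremes fell within 1 group. Outside the lists, the loci whose libraries ranked most like that mean were Ehbp1, Gins4 and Sms (Spearman 0.945 each) and Cbr4 and Mrpl9 (0.936 each).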

How the data were processed

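Whole-kidney mRNA was measured in 11 libraries. The authors deposited estimated counts per gene symbol for each library, raw and unscaled according to the file headers; the deposited values came in steps of 0.5 (47.4% of values above 0 were not whole). Per the submitters' processing notes, the tools were HTSeq 0.5.4p5, STAR, SAMtools, FastQC and limma, on mm10. The annotation used for counting is not given in the sources. The genes and lists were chosen with earlier results of these data known. The rule for named genes took all 10 genes and, per list and comparison, the 2 smallest p and up to 6 past the threshold.

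Counts were rounded. Names with identical counts in all libraries (total at least 50) were joined, giving 23401 loci, 1513 of them joint. Loci kept by filterByExpr (14380) were tested with edgeR 4.0.16 (R 4.3.3; TMM factors 0.917 to 1.08; glmQLFit robust, 3 groups in 1 fit, two-sided, Benjamini-Hochberg, threshold 0.05). DESeq2 1.42.0, limma-voom (limma 3.58.1), other scaling, filtering, covariates and left-out libraries were alternatives. Intervals at 95% come from the fit's t quantiles and cover the spread between libraries. The script was tested on simulated data. Libraries with Ddx3y above 5 CPM were called with Y-linked reads. The clock index used 0.5 added to each CPM. Positions come from GENCODE vM21 and upstream sequences from RefSeq. Of the genes in the lists, 14 of the pathway genes were not analysed here.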

Additional observations from a re-analysis of the deposited data

How the results depend on the processing

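In the 3 comparisons of groups, the count of called genes was 0 of 9 under every alternative but DESeq2, which called 1 in KO PBS against HET PBS (Sdf2l1) and 1 in KO antimiR-21 against KO PBS (Herpud1), and the pathway count was 0 under all. Leaving out 1 library at a time kept the 9-gene counts at 0 there, and moved the Y-linked contrast from 2 to between 0 and 3, and its pathway count from 25 to between 10 and 46. Replicate numbers did not pair the libraries (same-numbered pairs correlated at -0.444 to 0.629 over 10 pairs, median 0.296, and different numbers at -0.718 to 0.625, median -0.156). With a replicate block the Y-linked counts were 0 and 5, Calr in KO PBS against HET PBS was -0.0215, and in the Y-linked contrast Hsp90b1 was -0.0946, Dnajb9 0.11, Herpud1 0.36 and Xbp1 0.10. With the same block 2 loci in all were called in KO PBS against HET PBS, 26 in KO antimiR-21 against KO PBS and 4 in KO antimiR-21 against HET PBS, none of the 9 genes among them. With Y-linked status as a covariate, Ddit3 in KO PBS against HET PBS was 0.0068, and in KO antimiR-21 against HET PBS Hspa5 was 0.10 and Pdia4 0.0443. With the clock index as a covariate, differences in KO PBS against HET PBS turned to -0.0641 (Hsp90b1), -0.11 (Calr), 0.23 (Herpud1), 0.07 (Xbp1) and 0.0151 (Ddit3), and in KO antimiR-21 against KO PBS to 0.0476 (Hsp90b1), -0.0109 (Herpud1), 0.0166 (Mapk8), -0.10 (Derl3), -0.0181 (Os9), -0.0059 (Sesn2) and -0.32 (Creb3l3). Leave-one-out ranges that crossed 0 were, for KO PBS against HET PBS, -0.140 to 0.131 (Calr), -0.178 to 0.0102 (Pdia4), -0.145 to 0.0163 (Xbp1), -0.100 to 0.0573 (Ddit3) and -0.156 to 0.0251 (Hspa5). For KO antimiR-21 against HET PBS they were -0.111 to 0.0555 (Hspa5), -0.138 to 0.0399 (Hsp90b1) and -0.113 to 0.0601 (Pdia4), for KO antimiR-21 against KO PBS -0.0295 to 0.107 (Hspa5), and for Sdf2l1 in the Y-linked contrast -0.101 to 0.0519. The cause of these changes was not tested. Joint counts limit Hspa5, Xbp1 and Ddit3 at any depth, and the low counts of Sdf2l1 limit its precision.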

Other observations

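Heat shock genes that act outside the ER, in the cytosol or, for Hspd1 and Hspe1, in mitochondria, were read for comparison (8 genes with counts of their own). Their summed level was 1779 to 2379 CPM in HET PBS, 1560 to 1860.0 CPM in KO PBS and 1690.0 to 2312 CPM in KO antimiR-21, and the groups overlapped. Among the clock genes, Arntl stood at 3.57 to 30.6 CPM, Npas2 at 1.64 to 26.3 CPM and Per3 at 29.0 to 145 CPM over the 11 libraries. The 9 clock genes with counts of their own summed to 909 to 1471 CPM in HET PBS, 707 to 911 CPM in KO PBS and 906 to 1573 CPM in KO antimiR-21. The 4 Y-linked genes summed to 0.472 to 299 CPM, 0.184 to 262 CPM and 0 to 258 CPM in the same order of groups. In the groups of 4 libraries, Dixon's gap test marked an outlying library in 0 of 18 sets (9 genes in 2 groups).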
